A study of Drosophila melanogaster with 12 samples.

Results

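The genes that copy DNA and divide the cell were followed in RNA from sorted cells of the larval brain of Drosophila melanogaster. They are 43 named genes of origin licensing, the replicative helicase, the replication fork and nucleotide supply, the passage into S phase, mitotic entry, the chromosomal passenger complex and spindle checkpoint, and the spindle and cytokinesis. The list was chosen with earlier results of these data known. Each name was then matched to its gene identifier without use of measured values, and 41 of the 43 are among the 12610 genes of the table. Mcm3 and Orc1 are not analysed here. Brains of larvae early in instar 3 were dissociated and sorted by FACS on GFP, where GFP-positive cells express Rfx, whose product regulates ciliary genes in many animals. The 4 groups, of 3 libraries each, are GFP-positive cells of rfx knock-out (KO) brains, GFP-positive cells of wild-type (WT) brains, GFP-negative cells of KO brains and GFP-negative cells of WT brains. All 4 groups were sorted and prepared alike from 4 ng of RNA. The rfx allele, the construct that makes GFP, the strain and the sex are not given in the labels, nor is it stated whether replicates are independent dissections, and the p-values therefore reflect library-to-library spread only.

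A cell that will divide first loads the MCM helicase onto origins, with the origin recognition complex and dup, the fly Cdt1, while geminin blocks reloading. Cyclin E with Cdk2 then starts S phase, in part by releasing the E2F transcription factors from Rbf, the fly retinoblastoma protein, and cyclins A, B and B3 with Cdk1, activated by the phosphatase string, drive mitosis. In the larval brain this machinery runs in neuroblasts and ganglion mother cells, whose neuronal progeny leave the cycle, and dap, an inhibitor of the cyclin E kinase, and fzr, the Cdh1 activator of the anaphase-promoting complex (APC), are known for helping cells to leave it.

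The authors deposited normalised counts (CPM scale), and the libraries held 20301256 to 29771321 reads. All 41 members passed the low-value filter, a value of 1 or more in 3 or more libraries. Rfx itself averaged 1126 ± 169.8 in KO GFP-positive cells and 2793 ± 217 in WT GFP-positive cells (SD, n = 3 each), so the transcript was lower in the KO libraries (log2 change -1.32, adjusted p = 1.03e-05) and still present. KO GFP-positive replicate 3 had 2.54% rRNA reads and WT GFP-positive replicate 2 had 12.2%, where the remaining libraries had 0.289% to 0.976%. The labels call both fractions neurons. The summed level of 10 markers of neuroblasts and ganglion mother cells was 47.7 to 71.6 in KO GFP-positive and 44.7 to 57.8 in WT GFP-positive libraries, against 1473 to 1736 in KO GFP-negative and 1286 to 1542 in WT GFP-negative libraries. All 10 were lower in WT GFP-positive cells, and the defining markers wor (5.87 ± 0.228 in WT GFP-positive cells, against 443 ± 32.99 in WT GFP-negative cells), ase (4.17 ± 0.627 in WT GFP-positive cells, against 314 ± 31.97 in WT GFP-negative cells) and mira (5.97 ± 0.323 in WT GFP-positive cells, against 180.2 ± 29.9 in WT GFP-negative cells) were at 0 in neither fraction. The GFP-negative fraction therefore held RNA of progenitors, against its label. The neuron marker elav stood at 584 ± 73.9 in WT GFP-positive cells, against 659 ± 44.5 in WT GFP-negative cells and was not called, nSyb at 1044 ± 385 in WT GFP-positive cells, against 437 ± 67.6 in WT GFP-negative cells. Of 10 glia markers, 4 were lower in WT GFP-positive cells, 1 was higher and 5 were not called. repo stood at 17.7 ± 11.4 in WT GFP-positive cells, against 17.8 ± 1.49 in WT GFP-negative cells, but gcm, named with the next after their values were seen, at 1.34 ± 0.52 in WT GFP-positive cells, against 47.4 ± 4.34 in WT GFP-negative cells, Eaat1 at 14.1 ± 2.08 in WT GFP-positive cells, against 213 ± 34.7 in WT GFP-negative cells and Gs2 at 113 ± 16.9 in WT GFP-positive cells, against 41.2 ± 8.90 in WT GFP-negative cells. The summed level of 9 neuron markers was 8324 to 10230.2 in WT GFP-positive and 4184 to 4906 in WT GFP-negative libraries. The summed level of the glia markers was 620.2 to 638 in WT GFP-positive and 841 to 1072 in WT GFP-negative libraries. The part of this difference in makeup in the results on the GFP fractions was not tested, and in sorted bulk RNA fewer cells of a type and less RNA per cell cannot be told apart.

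Most of the division machinery was lower in the cells that express Rfx. In WT brains 36 of 41 members were lower in GFP-positive than in GFP-negative cells, 2 were higher (E2f1 and Rbf) and 3 were not called (Dp, Bub1 and fzr). Over all 9912 genes tested, 12.3% were called lower and 25.7% were called higher. The median log2 change was -2.48 over the members and 0.09 over all genes. In KO brains the counts were the same, with 36 members lower, against 12.9% of all genes, 2 higher, against 23.6% of all genes, and a median of -2.48 against 0.07. Changes are on the scale of log2(value + 1) and were tested with limma-trend, two-sided, with Benjamini-Hochberg adjustment over all genes and a threshold of 0.05. Each call is made on 3 libraries against 3, where an exact permutation test cannot give a p under 0.1.

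**Figure D1:**
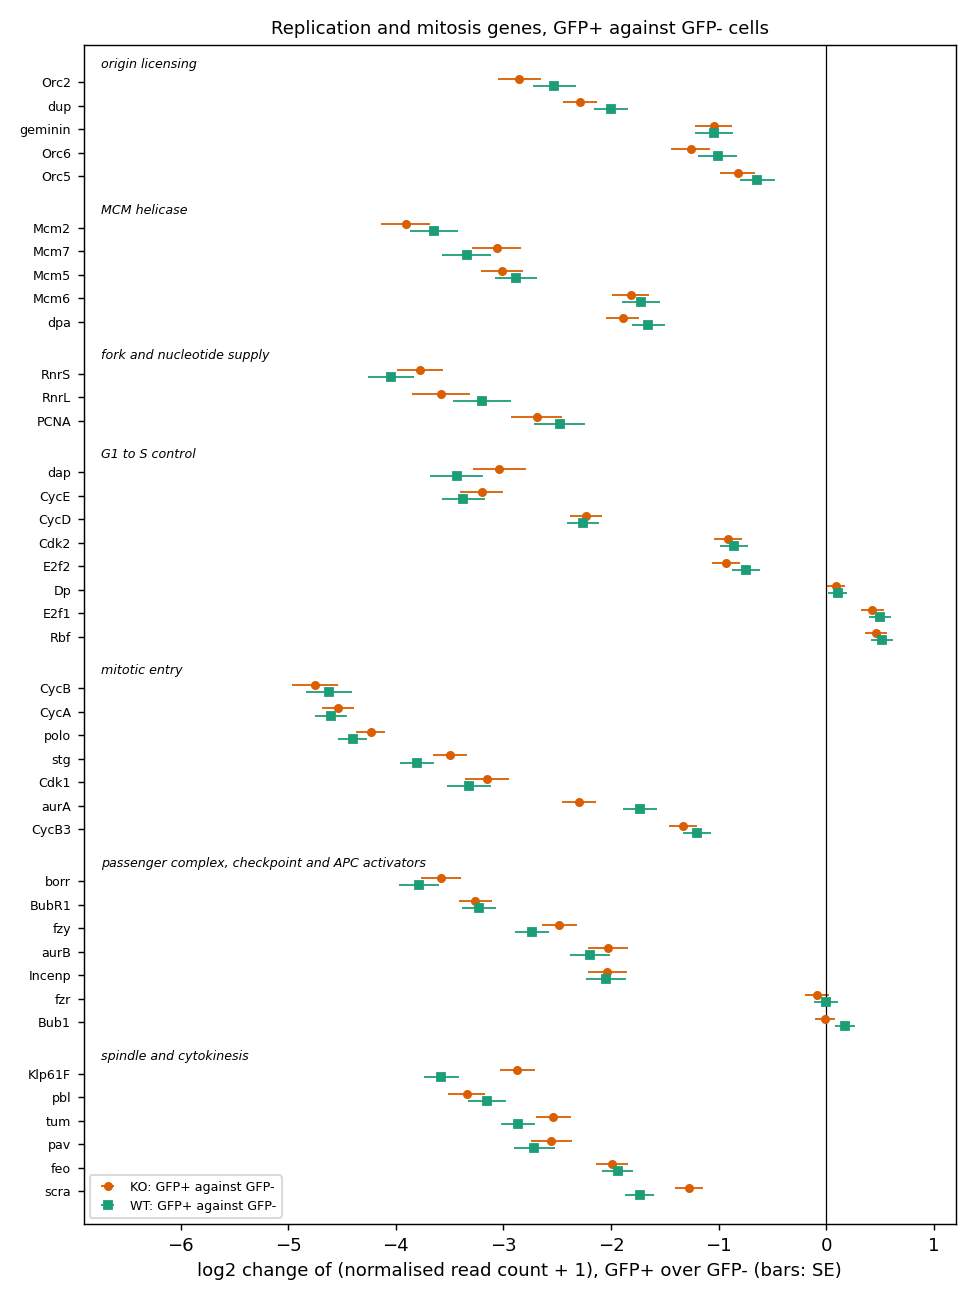
Log2 change of each member, GFP-positive over GFP-negative cells, in KO brains (orange circles) and WT brains (green squares), grouped by role, with bars for the standard error. The 36 members called lower lie left of 0 in both genotypes, from CycB at -4.75 in KO and -4.62 in WT to Orc5 at -0.82 in KO and -0.64 in WT; the higher calls of E2f1 and Rbf are lost when libraries are rescaled to equal totals.

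The fall ran over a wide range of sizes. As a share of the WT GFP-negative mean, the WT GFP-positive level was under 10% for 13 members, 10 to 30% for 15, 30 to 70% for 8 and over 70% for 5, with a median of 16.9% and a lowest value of 3.60%. For the 10 progenitor markers the same share ran from 1.33% to 12.7%, with a median of 5.33%. The summed level of all 41 members was 1771 to 1787 in WT GFP-positive and 4209.8 to 5376 in WT GFP-negative libraries, a ratio of 2.73 of GFP-negative over GFP-positive, against 27.5 for the progenitor markers. This sum is weighted to members of high level, among them E2f1, fzr and Dp, which were not called lower. By role the same ratio in WT ran from 1.16 for the regulators of S phase entry to 8.48 for the fork and nucleotide genes and 8.87 for mitotic entry.

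Of the replication genes, all 5 helicase subunits were lower, with a median log2 change of -2.89 in WT. Mcm2 (FBgn0014861, chromosome arm 3R, 8264970 to 8267924, BDGP6) stood at 6.39, 6.92 and 6.09 in WT GFP-positive libraries, against 65.9, 117 and 103 in WT GFP-negative libraries. In KO brains Mcm2 stood at 5.43, 4.70 and 7.48 in KO GFP-positive libraries, against 83.6, 131 and 93.6 in KO GFP-negative libraries. Every GFP-positive library was far below every GFP-negative one, and the change was -3.65 ± 0.23 (SE) in WT and -3.91 ± 0.23 in KO (adjusted p = 9.04e-08 and 5.5e-08). Mcm5 averaged 8.79 ± 1.40 in WT GFP-positive cells, against 72.2 ± 17.1 in WT GFP-negative cells (SD, n = 3 each, as for all means here), 8.22-fold lower. The other subunits fell as well: Mcm6 was 3.47-fold lower at 18.3 ± 0.75 in WT GFP-positive cells, against 63.7 ± 13.2 in WT GFP-negative cells, and dpa, the fly Mcm4, 3.25-fold lower at 33.99 ± 0.906 in WT GFP-positive cells, against 110.4 ± 19.6 in WT GFP-negative cells. Mcm7 was at 1.09 ± 0.183 in WT GFP-positive cells, against 20.4 ± 4.43 in WT GFP-negative cells, close to the filter in GFP-positive cells. An antisense RNA overlaps 81.7% of the exon length of Mcm7, and the kit keeps no strand, so reads of the pair cannot be told apart.

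The fork and nucleotide genes fell with them, 3 of 3, with a median of -3.20. RnrS, the small subunit of ribonucleotide reductase, which makes the DNA precursors, stood at 4.27, 4.04 and 3.86 in WT GFP-positive libraries, against 63.6, 102 and 86.8 in WT GFP-negative libraries. The groups are far apart, and the change was -4.05 ± 0.21 in WT and -3.77 ± 0.21 in KO (adjusted p = 2.14e-08 and 4.61e-08). RnrL, the large subunit, averaged 8.28 ± 3.76 in WT GFP-positive cells, against 80.99 ± 15.4 in WT GFP-negative cells. PCNA, the sliding clamp of the polymerases, kept more, at 25.9, 20.2 and 25.1 in WT GFP-positive libraries, against 92.1, 174 and 155 in WT GFP-negative libraries. No library of one fraction reached the other, and PCNA was 5.93-fold lower in WT and 6.74-fold lower in KO.

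The licensing genes fell least of the replication groups, all 5 of them, with a median of -1.04. Orc2, a subunit of the origin recognition complex, was 9.16-fold lower at 1.45 ± 0.1 in WT GFP-positive cells, against 13.3 ± 2.50 in WT GFP-negative cells, but Orc6 was 2.25-fold lower (4.32 ± 0.731 in WT GFP-positive cells, against 9.72 ± 1.65 in WT GFP-negative cells) and Orc5 1.63-fold lower (-0.64 ± 0.16 on the log2 scale, adjusted p = 0.00773). Orc5 stood at 8.37, 7.57 and 6.09 in WT GFP-positive libraries, against 10.5, 13.7 and 11.8 in WT GFP-negative libraries, with no overlap. Sting overlaps 5.66% of the exon length of Orc6 and averaged 19.6 in WT GFP-positive cells, against 10.9 in WT GFP-negative cells. dup, which loads the helicase, was at 21.2 ± 1.43 in WT GFP-positive cells, against 88.6 ± 14.5 in WT GFP-negative cells. Its inhibitor geminin stood at 34.04, 38.9 and 38.6 in WT GFP-positive libraries, against 55.5, 99.2 and 84.5 in WT GFP-negative libraries. The groups do not overlap, and geminin was 2.14-fold lower in WT and 2.10-fold lower in KO (adjusted p = 0.000463 and 0.000476). Per kb of exon the level of geminin was above that of dup in both fractions, at 35.1 against 6.75 in WT GFP-positive and 75.2 against 28.2 in WT GFP-negative cells.

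The regulators of S phase entry split. The G1 and S cyclins fell with the machinery they start: CycE, the activator of Cdk2, stood at 7.18, 8.78 and 7.62 in WT GFP-positive libraries, against 74.6, 107 and 92.5 in WT GFP-negative libraries. Every GFP-positive library was far below every GFP-negative one, and the change was -3.37 ± 0.20 in WT and -3.20 ± 0.20 in KO (adjusted p = 6.09e-08 and 1.07e-07). CycD, which acts in growth and G1, was 5.25-fold lower at 7.81 ± 1.31 in WT GFP-positive cells, against 41.02 ± 0.851 in WT GFP-negative cells. The inhibitor dap fell too, to 9.59, 10.1 and 10.2 in WT GFP-positive libraries, against 106, 134 and 114 in WT GFP-negative libraries. In KO GFP-positive libraries dap stood at 9.39, 9.72 and 20.9, where replicate 3 is above the others, against 95.7, 99.1 and 139 in KO GFP-negative libraries. Cdk2 fell less, at 36.3 ± 3.00 in WT GFP-positive cells, against 66.7 ± 6.71 in WT GFP-negative cells, and so did E2f2, the E2F that mainly represses, at 62.9 ± 6.25 in WT GFP-positive cells, against 106 ± 8.54 in WT GFP-negative cells (adjusted p = 0.000239 and 0.000624). CG17267 overlaps 43.9% of the exon length of Cdk2 on the other strand but had means under 1 in all 4 groups. Mpp6 overlaps 19.9% of E2f2 and was called lower as well. Its log2 change was -0.75 in WT (adjusted p = 0.00362) and -0.69 in KO (adjusted p = 0.00636). The part of Mpp6 reads in the difference of E2f2 was not tested.

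E2f1 and Rbf, at the core of the E2F and retinoblastoma switch, were higher as deposited. E2f1, the activating E2F (FBgn0011766, chromosome arm 3R, 21620304 to 21660871), stood at 330.1, 381 and 317 in WT GFP-positive libraries, against 234, 249 and 242 in WT GFP-negative libraries, and at 299, 365 and 295 in KO GFP-positive libraries, against 227, 246 and 236 in KO GFP-negative libraries. Every GFP-positive library was above every GFP-negative one of its genotype, and the change was 0.50 ± 0.10 in WT and 0.43 ± 0.10 in KO (adjusted p = 0.00245 and 0.00661). Rbf, which holds E2F in check (FBgn0015799, chromosome arm X, 797090 to 801479), stood at 139, 131 and 126 in WT GFP-positive libraries, against 85.5, 105 and 87.03 in WT GFP-negative libraries, and at 132, 124 and 123.4 in KO GFP-positive libraries, against 83.6, 94.9 and 96.8 in KO GFP-negative libraries. Again the groups do not overlap, with a change of 0.52 ± 0.10 in WT and 0.46 ± 0.10 in KO (adjusted p = 0.00162 and 0.00378). Both calls depend on the scaling between fractions. When every library was rescaled to equal totals, the median of all genes in WT moved to -0.18, against 0.09, and E2f1 stood at 0.20 (adjusted p = 0.1) and Rbf at 0.22 (adjusted p = 0.149). Relative to that median E2f1 was at 0.38 after rescaling and 0.41 as deposited, and Rbf at 0.40 and 0.43, but after quantile normalization they were at 0.19 and 0.21 in WT and at 0.15 and 0.20 in KO.

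Dp, the partner that E2F proteins need to bind DNA, was at 260.4 ± 16.8 in WT GFP-positive cells, against 242 ± 15.3 in WT GFP-negative cells, and at 271 ± 10.7 in KO GFP-positive cells, against 255 ± 10.1 in KO GFP-negative cells. Its groups overlap, and the change was 0.11 in WT (95% interval -0.08 to 0.30) and 0.09 in KO (-0.10 to 0.28). fzr was likewise high in all groups, at 284 ± 13.05 in WT GFP-positive cells, against 285 ± 26.6 in WT GFP-negative cells, with a change of -0.00 (-0.24 to 0.24), but was called lower after rescaling, at -0.30 in WT (adjusted p = 0.0477) and -0.32 in KO (adjusted p = 0.0398). Bub1, a kinase of the spindle checkpoint, was at 60.3 ± 2.91 in WT GFP-positive cells, against 53.4 ± 3.91 in WT GFP-negative cells, and its change was 0.17 in WT (-0.03 to 0.38) and -0.01 in KO (-0.21 to 0.19). These intervals all end above -0.64, the smallest change among the 36 members called lower in WT, and do not show that the levels were equal. After rescaling, the sign in WT turned to -0.19 for Dp and -0.12 for Bub1, neither of them called.

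**Figure D2:**
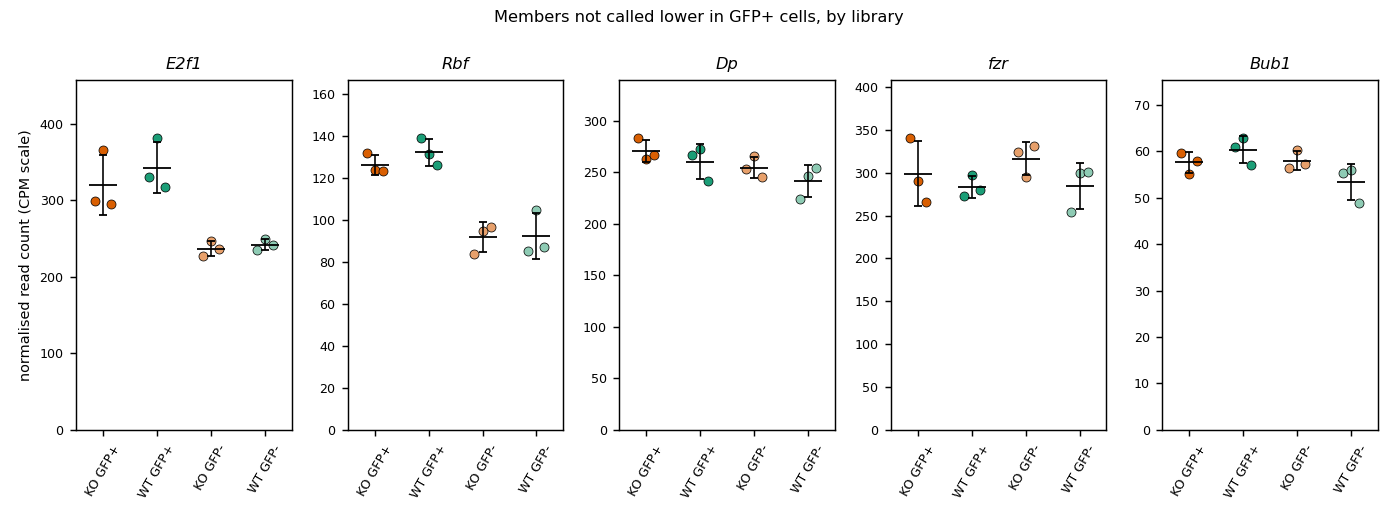
Normalised read count (CPM scale, linear axes from 0) of the 5 members not called lower in GFP-positive cells, by library, with the mean and SD of each group. E2f1 and Rbf are higher in GFP-positive libraries of both genotypes as deposited (not called after rescaling to equal totals), and the groups of Dp and fzr overlap.

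The genes of mitotic entry all fell, 7 of 7, with a median of -3.80 in WT, the lowest of the role groups there, and of -3.50 in KO, where the fork and nucleotide genes had -3.58. CycB, the mitotic cyclin, stood at 6.46, 7.90 and 4.35 in WT GFP-positive libraries, against 166, 184 and 169 in WT GFP-negative libraries. CycA, needed in S phase and mitosis, stood at 8.47, 8.45 and 7.06 in WT GFP-positive libraries, against 186, 254 and 216 in WT GFP-negative libraries. polo, a mitotic kinase, stood at 10.1, 7.94 and 8.92 in WT GFP-positive libraries, against 180.2, 234 and 218 in WT GFP-negative libraries. In these the groups are separated by more than a factor of 10, with folds of 27.8, 27.3 and 23.4 in WT and 29.97, 25.8 and 20.3 in KO, and changes of -4.62 ± 0.21, -4.60 ± 0.15 and -4.40 ± 0.14 in WT (adjusted p = 6.89e-09, 6.22e-10 and 4.52e-10). string (stg), the Cdc25 phosphatase that switches on Cdk1, was 15.2-fold lower at 9.76 ± 1.18 in WT GFP-positive cells, against 149 ± 6.47 in WT GFP-negative cells, and Cdk1 10.7-fold lower at 12.3 ± 3.39 in WT GFP-positive cells, against 131 ± 27.2 in WT GFP-negative cells. aurA, the centrosome kinase, was 3.83-fold lower at 4.76 ± 0.402 in WT GFP-positive cells, against 18.2 ± 2.45 in WT GFP-negative cells. CG12213 overlaps 9.70% of the exon length of aurA and averaged 118 in WT GFP-positive cells, against 80.5 in WT GFP-negative cells. CycB3, the third of the mitotic cyclins, kept 69.7 ± 8.91 in WT GFP-positive cells, against 162 ± 22.9 in WT GFP-negative cells, 2.32-fold lower.

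The passenger and checkpoint genes fell in 5 of 7 cases. borr, the Borealin subunit of the chromosomal passenger complex, stood at 6.32, 4.60 and 6.69 in WT GFP-positive libraries, against 75.02, 104 and 102 in WT GFP-negative libraries, with no overlap and a change of -3.79 ± 0.18 (adjusted p = 1.03e-08). The other subunits kept more: aurB, its kinase, was 4.76-fold lower at 21.4 ± 3.72 in WT GFP-positive cells, against 102 ± 20.8 in WT GFP-negative cells, and Incenp, its scaffold, 4.10-fold lower at 45.7 ± 13.1 in WT GFP-positive cells, against 188 ± 19.6 in WT GFP-negative cells. BubR1, which acts beside Bub1 in the checkpoint, was 11.3-fold lower at 4.35 ± 0.772 in WT GFP-positive cells, against 48.97 ± 5.33 in WT GFP-negative cells, where Bub1 was not called. fzy, the Cdc20 activator of the APC in mitosis, was 7.44-fold lower at 7.36 ± 0.953 in WT GFP-positive cells, against 54.7 ± 7.77 in WT GFP-negative cells, where fzr was not called.

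The spindle and cytokinesis genes all fell, 6 of 6, with a median of -2.79. Klp61F, the kinesin-5 that pushes spindle poles apart, was 13.9-fold lower in WT, and pbl, which is needed for cytokinesis, 9.24-fold lower at 19.9 ± 2.81 in WT GFP-positive cells, against 184 ± 6.14 in WT GFP-negative cells. pav and tum, the kinesin-6 and its partner subunit in centralspindlin, were 6.70-fold and 7.35-fold lower. feo, the fly PRC1, which bundles midzone microtubules, was at 26.97 ± 4.28 in WT GFP-positive cells, against 106 ± 16.04 in WT GFP-negative cells. scra, the fly anillin, which organises the contractile ring, fell least, 3.33-fold, at 74.7 ± 14.1 in WT GFP-positive cells, against 249 ± 19.5 in WT GFP-negative cells.

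Compared per kb of exon length, the order of the members differed between the fractions. In WT GFP-positive cells the highest levels per kb were those of fzr (102), Dp (81.4), E2f1 (53.1), Rbf (36.6) and geminin (35.1). In WT GFP-negative cells they were those of tum (144), PCNA (131), Cdk1 (121), fzr (102) and aurB (86.2). Neighbours in such an order often lie within their spread: geminin and Rbf in WT GFP-positive cells do, as do tum and PCNA in WT GFP-negative cells, where PCNA ran from 92.1 to 174 on the count scale. The lowest per kb in both fractions were the low-level Orc2 and Mcm7 with Orc5 (GFP-negative) or BubR1 (GFP-positive).

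In the knock-out, 3 genes of the spindle and of cytokinesis were higher in the cells that express Rfx. Of the 41 members, 3 were higher in KO than in WT GFP-positive cells, Klp61F, scra and pav, and none was lower, with 7 at an unadjusted p under 0.05 (17.1%, beside 10.2% of all genes). Of all genes tested 3.07% were called in either direction, and with the run of title numbers as a block 288 genes were called higher and 187 lower in place of 173 and 131, with the members called unchanged. The median log2 change was 0.09 over the members and 0.01 over all genes. All 3 called members are among the 6 spindle and cytokinesis genes, whose summed level was 1.48 times as high in KO as in WT GFP-positive cells, against 0.98 for the MCM helicase, 0.90 for the fork and nucleotide genes and 1.24 for mitotic entry. The other roles were at 0.99 (S phase entry), 1.02 (licensing) and 1.07 (passenger and checkpoint). The spindle and cytokinesis sum ran from 257 to 315 in KO and from 163 to 226 in WT libraries. It includes the 3 called members and is not separate evidence for the group.

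Klp61F (FBgn0004378, chromosome arm 3L, 1241568 to 1245910) stood at 15.1, 10.97 and 14.9 in KO GFP-positive libraries, against 4.56, 4.32 and 6.539 in WT GFP-positive libraries. The lowest KO value is above the highest WT value, and the KO mean was 2.66 times the WT mean, with a log2 change of 1.26 ± 0.16 (adjusted p = 0.000435). This call held in 24 of 24 alternatives, with adjusted p of 1.18e-11 to 0.0188 by limma, edgeR or DESeq2. Even in KO cells its level was far under that of GFP-negative cells, which held 102, 107 and 107 in KO and 65.1, 79.02 and 70.5 in WT libraries. galene overlaps 10.95% of its exon length but had means under 1 in both GFP-positive groups.

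scra (FBgn0261385, chromosome arm 2R, 7590119 to 7595242) stood at 132, 106 and 116 in KO GFP-positive libraries, against 73.7, 61.2 and 89.3 in WT GFP-positive libraries, and pav (FBgn0011692, chromosome arm 3L, 4242734 to 4246233) at 39.1, 28.2 and 43.6 in KO GFP-positive libraries, against 19.6, 15.9 and 27.4 in WT GFP-positive libraries. In both genes all KO values exceed all WT values, by a narrow margin for pav, whose WT replicate 3 is near KO replicate 2. Such a separation, KO above WT in GFP-positive cells, held for 4 of 41 members (9.76%) and for a similar 8.16% of all genes tested. The log2 change was 0.66 ± 0.13 for scra (adjusted p = 0.014) and 0.80 ± 0.19 for pav (adjusted p = 0.0396). scra was called in 19 of 24 alternatives and lost its call without WT GFP-positive replicate 1 (adjusted p = 0.0571), without KO GFP-positive replicate 1 (0.0666) and without the 2 rRNA-rich libraries (0.0829), as well as after rescaling to equal totals (0.0657) and with only these 2 groups in the fit (0.11). pav was called in 10 of 24, and lost its call by edgeR (adjusted p = 0.0701), after rescaling (0.113) or quantile normalization (0.117), with only these 2 groups (0.208), without the 2 rRNA-rich libraries (0.244) and without any 1 of 9 libraries (0.0561 to 0.156), the exceptions being KO GFP-positive replicate 2, WT GFP-positive replicate 3 and WT GFP-negative replicate 1.

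The other members of this group did not pass. tum, the partner of pav in centralspindlin, stood at 75.4, 56.5 and 67.3 in KO GFP-positive libraries, against 45.02, 36.3 and 57.03 in WT GFP-positive libraries, overlapping by WT replicate 3, with a change of 0.53 ± 0.16 (adjusted p = 0.137), and it was called without that library (0.0402). feo had a change of 0.16 (95% interval -0.16 to 0.47) and pbl of 0.08 (-0.30 to 0.46). CycB3 stood at 104, 84.4 and 83.7 in KO GFP-positive libraries, against 78.2, 60.4 and 70.6 in WT GFP-positive libraries, with no overlap and an adjusted p of 0.238. aurA went the other way, at 3.22, 2.78 and 4.07 in KO GFP-positive libraries, against 4.67, 4.41 and 5.20 in WT GFP-positive libraries, again with no overlap but an adjusted p of 0.325. For the replication genes no change was detectable: Mcm2 had -0.14 (-0.63 to 0.35), PCNA -0.19 (-0.71 to 0.32) and CycE 0.01 (-0.42 to 0.44).

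**Figure D3:**
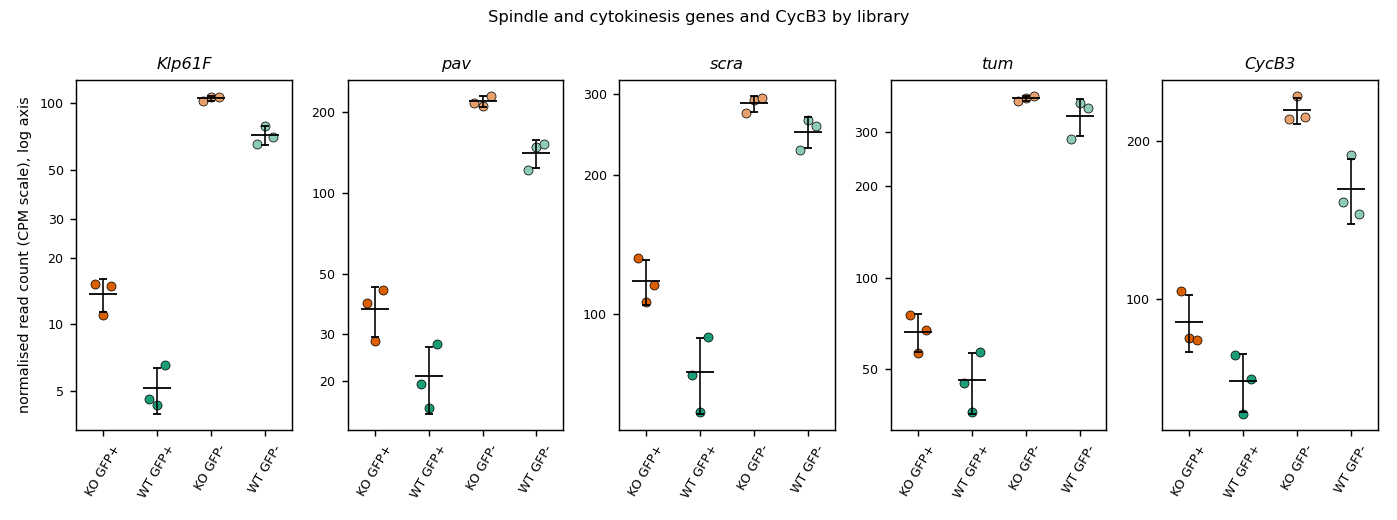
Normalised read count (CPM scale, log axes) of Klp61F, pav, scra, tum and CycB3 by library, with the mean and SD of each group of 3. KO libraries lie above WT libraries in both fractions for Klp61F, pav, scra and CycB3, and tum overlaps in GFP-positive cells.

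Markers of progenitors and of glia were looked at beside this. Of the 10 progenitor markers, tll was called higher in KO GFP-positive cells, at 6.75 ± 1.29 against 3.70 ± 0.998 in WT GFP-positive cells (log2 change 0.73, adjusted p = 0.0486; named after its values were seen). Their summed level was 1.11 times as high in KO as in WT GFP-positive cells, with ranges that overlap (47.7 to 71.6 in KO and 44.7 to 57.8 in WT). wor stood at 7.33 ± 1.66 in KO and 5.87 ± 0.228 in WT GFP-positive cells, and grh at 3.77 ± 3.05 in KO and 5.57 ± 1.72 in WT GFP-positive cells, neither of them called (grh likewise named after its values were seen). The log2 change was above 0 for 7 of the 10, and ran from -0.60 for grh to 0.73 for tll. Of the 10 glia markers, 8 had a change above 0 and 2 an unadjusted p under 0.05, and the lowest adjusted p by limma was 0.0854, for drpr. Their summed level was 651 to 885 in KO and 620.2 to 638 in WT GFP-positive libraries, and 1146 to 1218 in KO and 841 to 1072 in WT GFP-negative libraries. As deposited, the glia sums do not overlap between genotypes in either fraction, with KO at 1.17 times WT in GFP-positive and 1.18 times in GFP-negative cells. As a percent of the library total they overlap in GFP-positive cells, at 0.0569 to 0.0804 in KO and 0.0505 to 0.0616 in WT. In GFP-negative cells they stay apart, at 0.120 to 0.130 in KO and 0.104 to 0.117 in WT. The part of these markers in the differences of Klp61F, scra and pav was not tested. Lane was partly confounded with genotype, and with lane as a covariate the members called were the same 3.

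In GFP-negative cells no member passed between genotypes, with limma, DESeq2 or edgeR; each tool gave 3 members an unadjusted p under 0.05, by limma 7.32% of the members and 8.04% of all genes. The background was 0.686% of all genes called by limma. The median log2 change was 0.16 over the members and 0.04 over all genes. The member median depended on the libraries, at 0.04 without WT GFP-negative replicate 1 and 0.24 without WT GFP-negative replicate 2. It also depended on scaling, at 0.06 after quantile normalization and 0.08 after rescaling to equal totals, against 0.01 and -0.03 over all genes. Klp61F stood at 102, 107 and 107 in KO GFP-negative libraries, against 65.1, 79.02 and 70.5 in WT GFP-negative libraries. pav stood at 216, 211 and 229.9 in KO GFP-negative libraries, against 121, 149 and 152 in WT GFP-negative libraries. CycB3 stood at 220.3, 244 and 222 in KO GFP-negative libraries, against 153, 188 and 145 in WT GFP-negative libraries. In all 3 genes every KO library was above every WT library, at 1.47, 1.56 and 1.41 times the WT mean, with adjusted p of 0.242, 0.262 and 0.171. In 11 members, all with KO above WT, the groups did not overlap: these 3 with scra, tum, feo, pbl, Incenp, BubR1, Bub1 and E2f2. That is 26.8% of the members, beside 11.9% of all genes tested with KO above WT without overlap in this fraction.

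Set side by side, the knock-out differences of the fractions share no library, although libraries of the same run of titles enter both. KO was above WT without overlap in both fractions for 4 members, CycB3, Klp61F, pav and scra, which is 9.76% of the 41, and for 2.74% of all genes tested. The log2 change was above 0 in both fractions for 25 of 41 members (61.0%) and for 38.1% of all genes. The members share cells and libraries and are not replicates, so these counts are descriptions. The interaction of genotype with fraction was called for none of the members, with 3 at an unadjusted p under 0.05 by limma (7.32%, beside 3.91% of all genes), and for 0.555% of all genes. The largest was that of Klp61F, at 0.71 ± 0.23 (unadjusted p = 0.00856, adjusted p = 0.518). edgeR called none, and DESeq2 called Klp61F alone, at 0.89 (adjusted p = 0.0299). That the knock-out difference differs between the fractions was thus shown for no member by the fit used here.

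**Figure D4:**
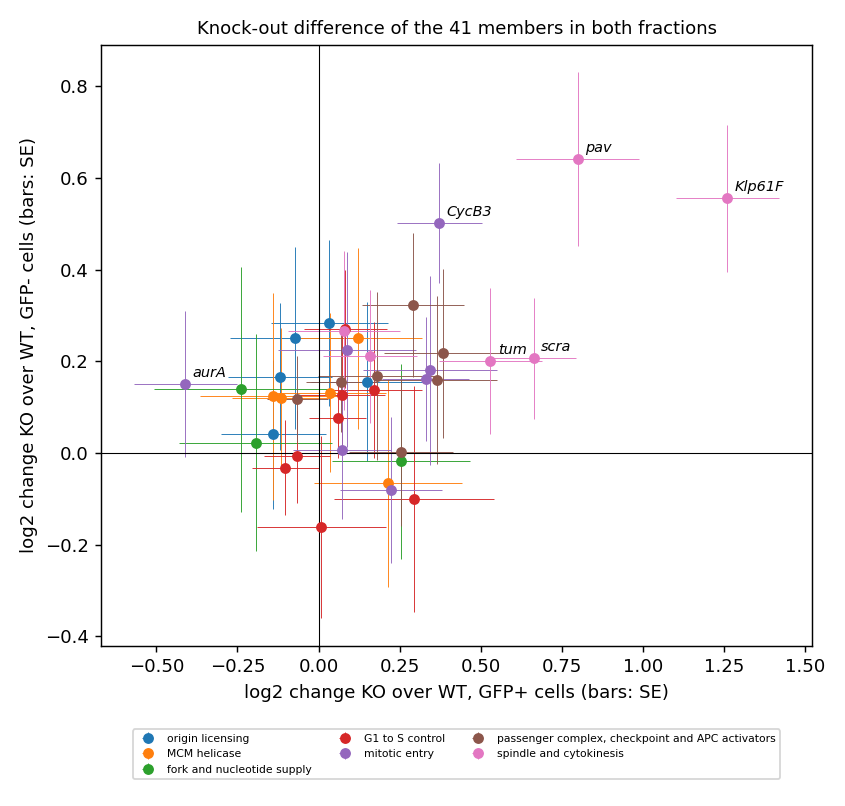
Log2 change of each member, KO over WT, in GFP-positive cells (x axis) and in GFP-negative cells (y axis), with bars for the standard error and colours for the role. Klp61F (1.26 and 0.56) and pav (0.80 and 0.64) lie at the upper right, and aurA is lowest on the x axis at -0.41.

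The members also varied among replicate libraries, in both GFP fractions. In KO GFP-negative libraries the highest summed level of the MCM helicase was 1.51 times the lowest, and in WT GFP-negative libraries 1.58 times. For the fork and nucleotide genes the ratios were 1.60 in KO and 1.67 in WT, and for the spindle and cytokinesis genes 1.05 and 1.21. The ratio for the progenitor markers was 1.18 in KO and 1.199 in WT. For licensing, helicase and fork genes replicate 1 was the lowest and replicate 2 the highest in both genotypes. Replicate 1 of the WT GFP-negative cells was below its group mean in all but 1 of 41 members (median deviation -0.22 on the log2 scale) and replicate 2 above it in 41 of 41 (0.18). Replicate 1 of the KO GFP-negative cells was above its mean in only 3. Over all genes tested, the median deviation was -0.08 for WT GFP-negative replicate 1, which has the lowest column total, and 0.07 for replicate 2. The summed glia markers were lowest in that library as well. After rescaling to equal totals, an alternative chosen after seeing the data, WT GFP-negative replicate 1 was above its mean in 14 of 41 members and replicate 2 in 29. The ratio of highest to lowest in GFP-negative libraries then was 1.06 in KO and 1.08 in WT for the sum of all members, against 1.13 and 1.28 as deposited. For the MCM helicase it was 1.41 in KO and 1.33 in WT, and for the fork and nucleotide genes 1.48 and 1.42, with replicate 1 still lowest and replicate 2 highest. In GFP-positive libraries it then was 1.51 in KO and 1.71 in WT for the fork and nucleotide genes, and 1.30 and 1.72 for the spindle and cytokinesis genes. Both GFP-negative replicates 1 carry title numbers of the run from 13 to 16. Titles 13 to 16 were on lane 7 and titles 1 to 4 on lane 6. Titles 5 and 6 (WT) were on lane 6 and titles 7 and 8 (KO) on lane 7. What else the libraries of a run share is not given in the labels, and the part of the run in this pattern was not tested.

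**Figure D5:**
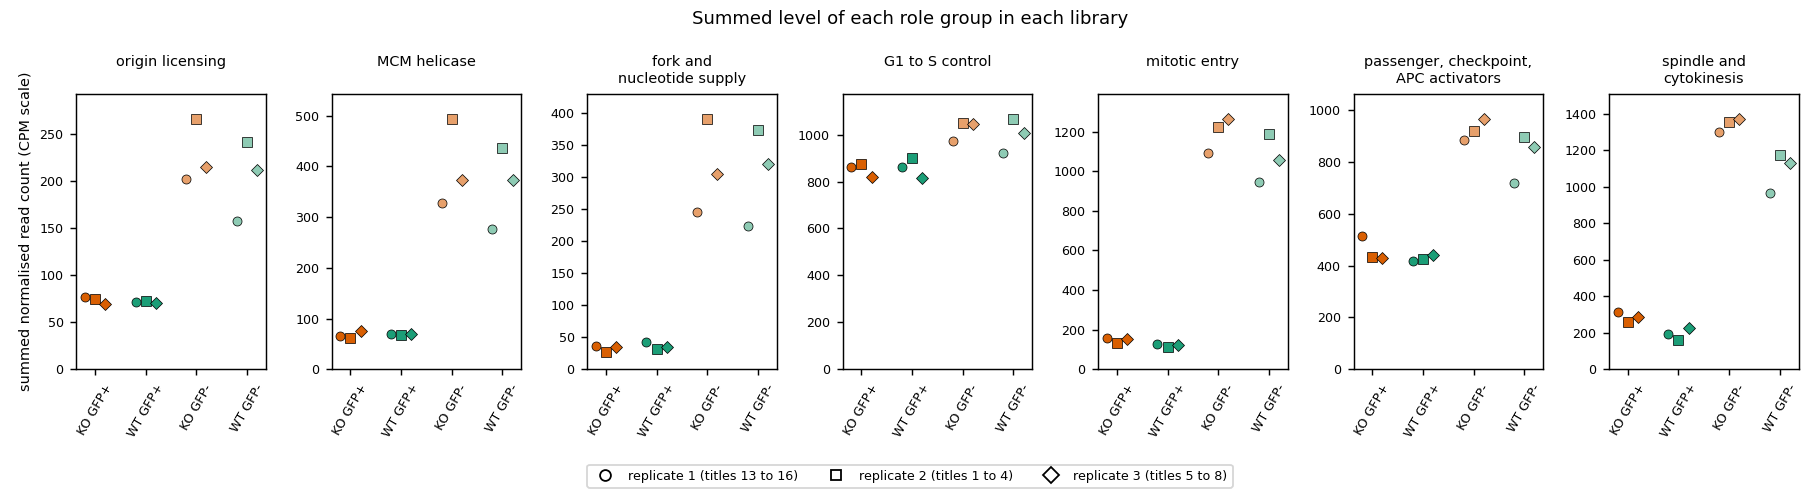
Summed normalised read count (CPM scale, linear axes from 0) of the members of each role in each library, by group, with a symbol for each replicate. In GFP-negative cells replicate 2 is highest and replicate 1 lowest for licensing, helicase and fork genes in both genotypes, where the highest over lowest ratio reaches 1.67 as deposited and 1.48 after rescaling to equal totals.

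Other genes of the same pathways were counted beside the members. Of 32 further replication genes, WT GFP-positive cells had 27 lower and 1, the origin kinase Cdc7, higher (178 ± 11.4 in WT GFP-positive cells, against 138 ± 6.07 in WT GFP-negative cells), with a median log2 change of -0.99. The smallest p-values were those of Caf1-180 (1.79 ± 0.542 in WT GFP-positive cells, against 31.4 ± 4.48 in WT GFP-negative cells), PolE2 (1.202 ± 0.568 in WT GFP-positive cells, against 14.4 ± 1.41 in WT GFP-negative cells), timeout (2.61 ± 1.13 in WT GFP-positive cells, against 17.2 ± 2.68 in WT GFP-negative cells) and PolA1 (3.21 ± 0.957 in WT GFP-positive cells, against 34.3 ± 7.35 in WT GFP-negative cells), which serve chromatin assembly, the leading-strand polymerase and the priming polymerase, with timeout a relative of timeless. Of 56 further mitosis genes tested, 34 were lower and 5 were higher, with a median of -0.77. sti, the citron kinase of cytokinesis, stood at 13.7 ± 2.22 in WT GFP-positive cells, against 362 ± 29.4 in WT GFP-negative cells, and mud, which orients the spindle, at 4.79 ± 1.46 in WT GFP-positive cells, against 114.9 ± 10.2 in WT GFP-negative cells. cmet, the kinetochore kinesin CENP-E, stood at 5.32 ± 1.05 in WT GFP-positive cells, against 88.3 ± 5.38 in WT GFP-negative cells, and Sse, the separase, at 1.56 ± 0.302 in WT GFP-positive cells, against 21.3 ± 2.97 in WT GFP-negative cells. Of 34 further regulators 10 were lower and 9 higher, with a median of -0.04. Among them Rbf2, the second retinoblastoma family gene, stood at 3.70 ± 0.436 in WT GFP-positive cells, against 28.9 ± 3.92 in WT GFP-negative cells and Skp2, a ubiquitin ligase subunit, at 2.76 ± 0.442 in WT GFP-positive cells, against 36.4 ± 3.19 in WT GFP-negative cells. lok, the checkpoint kinase Chk2, stood at 3.66 ± 0.727 in WT GFP-positive cells, against 43.2 ± 6.29 in WT GFP-negative cells and trbl, known in flies for promoting the destruction of string, at 2.42 ± 0.398 in WT GFP-positive cells, against 22.4 ± 3.54 in WT GFP-negative cells. In KO brains the counts were 26 lower and 0 higher, 34 and 3, and 12 and 5 in the same order of lists. The calls of these lists, that of Cdc7 included, are as deposited. They were not recomputed after rescaling to equal totals, under which E2f1 and Rbf lost their higher calls.

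Between genotypes in GFP-positive cells, 2 of 122 further genes tested in these lists were called (1.64%, under the 3.07% of all genes), both of mitosis. ncd, a minus-end kinesin of the spindle, stood at 118, 87.5 and 108 in KO GFP-positive libraries, against 67.6, 60.5 and 63.98 in WT GFP-positive libraries, higher in KO (log2 change 0.69 ± 0.13, adjusted p = 0.00844). Spc105R, a scaffold of the kinetochore, stood at 7.37, 10.03 and 12.4 in KO GFP-positive libraries, against 26.5, 20.4 and 38.4 in WT GFP-positive libraries, lower in KO (-1.41 ± 0.21, adjusted p = 0.00145). In GFP-negative cells none of the 3 lists held a call, with Spc105R at 93.2 ± 7.15 in KO and 125 ± 8.15 in WT cells.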

How the data were processed

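RNA-seq of 12 libraries was analysed, 3 in each of 4 groups set by the genotype and GFP labels. Replicate numbers follow the order of deposition: replicates 1, 2 and 3 hold titles 13 to 16, 1 to 4 and 5 to 8. Per the labels' protocols, 4 ng of RNA went into each library, by SMARTer Ultra Low amplification and Nextera tagging without strand. BDGP6, edgeR 3.10.5, HTSeq 0.6.1 and TopHat2 2.0.13 are listed in the submitters' processing notes, with no role or order. The deposited signal values are normalised counts; 100% of values are whole multiples of the value of 1 read in their library (tolerance 0.001), which makes them read counts per gene over a library scaling factor. Column totals ran from 807057 to 1264329, so the scaling differs between libraries.

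Genes with a value of at least 1 in at least 3 libraries were fitted, 9912 in all, in R 4.3.3 by limma-trend, version 3.58.1, on log2(value + 1), in 1 fit of 12 libraries with group means and Benjamini-Hochberg adjustment over all genes. Alternatives were edgeR 4.0.16 (quasi-likelihood) and DESeq2 1.42.0 on the recovered reads, rescaling to equal totals, quantile normalization, pseudocounts of 0.5 and 5, no filter or a floor of 5, lane or run of titles as a covariate, 2 groups in the fit, and libraries left out. The fits were tried on simulated reads with the same relative spread for every gene and no effect of the run of titles. There, genes were raised and lowered in equal number, in WT GFP-positive libraries only. That setting differs from these data, so it does not measure the error rates of the calls here. Libraries of one run of titles deviated together within each comparison (r = 0.113 to 0.604 for the 3 pairs of each), so the run was tried as a block. Apart from the lanes, the labels do not say what a run shares. A fold is a ratio of group means. Names, positions and exon lengths came from BDGP6.54, in which 12389 of 12610 identifiers were found. The members and lists were chosen with earlier results of these data known. All members are named; of the further lists, the 4 genes with the smallest p in WT GFP-positive against WT GFP-negative cells and those called between genotypes are named, and others were named after their values were seen. Promoter sequences were not used here.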

Additional observations from a re-analysis of the deposited data

How the results depend on the processing

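Of 1991 values of 83 single-gene results recomputed under the alternatives, 1959 kept their direction and side of the threshold, 26 lost their call, 6 gained one and 0 reversed. Only results called under some setting enter this count, and most are differences between the GFP fractions. Some alternatives left out a library of neither group compared. The calls lost were those of pav (called between genotypes in 10 of 24 alternatives) and scra (19 of 24), and of E2f1 and Rbf between the fractions. The 36 members called lower in GFP-positive cells kept their calls in both genotypes under every alternative run, with 37 under rescaling to equal totals and quantile normalization, where fzr joined. The calls of E2f1 and Rbf depended on scaling: rescaling left 0 members higher in WT and 0 in KO, and quantile normalization left 1 in WT (E2f1) and 0 in KO. Rescaling moved the split of all genes in WT to 1133 higher and 2263 lower, against 2550 and 1215 as deposited; it was 1953 and 1560 with edgeR, 2048 and 1899 with DESeq2, and 2244 and 1685 after quantile normalization.

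Members called between genotypes in GFP-positive cells were 3, but 1 (Klp61F) after rescaling, 1 with 2 groups in the fit and 1 without the 2 rRNA-rich libraries; leaving out 1 library gave 1 to 4, and 1 without WT GFP-positive replicate 1 or KO GFP-positive replicate 1. The interaction gained 1 call with DESeq2 (Klp61F). With the run of titles as a replicate block the calls among members were unchanged: 36 lower and 2 higher in each genotype, 3 between genotypes in GFP-positive cells, 0 in GFP-negative cells and 0 for the interaction. Over all genes, 304 calls in KO against WT GFP-positive cells became 270 higher and 235 lower with DESeq2, and 103 and 84 with 2 groups in the fit. The causes were not tested. The planned search of promoters was not run. With 3 libraries a group, intervals of single members span about 0.2 to 0.6 on either side on the log2 scale, and smaller differences were not detectable. These intervals are not adjusted for the number of genes. Some differences larger than their interval were therefore not called, such as that of tum between genotypes in GFP-positive cells.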

Other observations

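Pairs of related genes moved apart between the GFP fractions. They were picked after their values were seen and are given as values. Rbf was higher in WT GFP-positive cells as deposited, while Rbf2 was lower at 3.70 ± 0.436 in WT GFP-positive cells, against 28.9 ± 3.92 in WT GFP-negative cells (-2.67 ± 0.14 on the log2 scale, adjusted p = 2.24e-08). string fell 15.2-fold, while twe, a second Cdc25 phosphatase known for its role in meiosis, was higher at 14.2 ± 2.72 in WT GFP-positive cells, against 8.73 ± 0.808 in WT GFP-negative cells (0.63 ± 0.15, adjusted p = 0.00608). Of the septins, filament proteins of the cytokinetic ring that also serve other cell shapes, Septin1 was higher at 315 ± 8.62 in WT GFP-positive cells, against 197 ± 20.8 in WT GFP-negative cells, Septin4 at 194 ± 36.2 in WT GFP-positive cells, against 121 ± 13.3 in WT GFP-negative cells and pnut at 578 ± 20.8 in WT GFP-positive cells, against 445 ± 39.3 in WT GFP-negative cells, while Septin5 was lower at 11.3 ± 2.70 in WT GFP-positive cells, against 16.6 ± 2.58 in WT GFP-negative cells (-0.53 ± 0.18, adjusted p = 0.0327). Septin2, the remaining septin listed, had a GFP-positive mean at 122% of its GFP-negative mean in WT and 115% in KO, so Septin5 alone went down. In KO cells Septin1 stood at 326 ± 40.7 in KO GFP-positive cells, against 221 ± 3.41 in KO GFP-negative cells and twe at 14.8 ± 0.429 in KO GFP-positive cells, against 11.7 ± 0.917 in KO GFP-negative cells, and the changes were 0.55 ± 0.10 (adjusted p = 0.00134) and 0.32 ± 0.15 (adjusted p = 0.123). The values of twe and the septins are as deposited and were not recomputed after rescaling to equal totals, which moved the median of all genes in WT to -0.18, against 0.09.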
